A study of Mus musculus with 12 samples.

Results

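Solute carriers are membrane proteins that move amino acids, sugars, ions, metals, nucleotides and vitamins across the plasma membrane and the membranes of organelles. The genes described here are those whose symbol starts with Slc and a number, with a probe that was detected (detection p under 0.01) on at least 2 of 12 arrays of mouse CD4+ T cells. Each gene was represented by its detected probe with the highest mean. Of 356 such genes with a probe, 164 passed and 192 did not, and over all genes and unnamed probes 12248 features passed the same rule. Among the 164, 83 were detected on all 12 arrays and 12 on exactly 2, while 24 genes left out had a best probe detected on 1 array and 168 had none.

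Resting T cells take up few nutrients, and activated ones raise glucose, lactate, amino acid and nucleoside transport as they grow and divide. Interleukin-7 (IL-7) is a cytokine that keeps naive T cells alive and signals through the transcription factor STAT5. Several carriers are known targets of factors that sense nutrients, among them Myc, which binds the E-box, and the zinc sensor Mtf1.

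RNA came from spleen CD4+ T cells of mice aged 2 months. All labels give the strain as B6.Cg-Tg(TcraTcrb)425Cbn/J, which carries a transgenic T cell receptor in every group including the controls, whereas the design text names C57BL/6 mice. One experiment followed naive CD4+ cells at 0, 6 and 24 h of IL-7, each time on 2 arrays. The other grew naive cells for 3 days into Th9 cells, the helper subset named after interleukin-9. Of these, 3 arrays came from cells that had no IL-7 and 3 from cells that had received it for 48 h before the culture. There were no untreated cells at 6 h or 24 h, so IL-7 and time in culture cannot be told apart in that time course. Nothing in the labels says that replicates are separate animals or cultures. Every p-value rests on variation among these arrays alone, possibly technical apart from the replicates that differ in sex, described below.

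Mean deposited signals lay at 157.6 to 245.2 on the time course arrays and at 116.1 to 221.6 on the Th9 arrays, with 28.3% to 34.5% of probes detected. The T cell gene Cd3e was detected on all 12 arrays, and Il9 on the 6 Th9 arrays, at deposited signals of 238.3 to 1100.8 there against -7.6 to 2.9 on the others. Replicate arrays correlated at 0.993 at 0 h, 0.962 at 6 h and 0.992 at 24 h over all detected features, and between 0.977 and 0.985 in the second experiment. The array of 6 h replicate 1 stood apart in markers of other cell types. Relative to the array mean, its summed B cell markers (5 of 8 with a probe were detected) stood at 65.93 against 0.58 to 3.17 on the other arrays of the experiment, its myeloid markers (7 of 11) at 31.29 against 5.99 to 6.85, and its erythroid markers (3 of 5) at 9.18 against 0.34 to 2.20. Xist, transcribed from the inactive X chromosome, had a deposited signal of 692.4 there and 792.4 on replicate 1 of Th9 cells after IL-7, and was not detected on the other 10 arrays. The Y chromosome gene Eif2s3y was at -7.3 on that Th9 array, not detected, and at 284.7 and 398.6 on replicates 2 and 3 of the group. The arrays of this group thus differ in sex and cannot all come from the same animal. On 6 h replicate 1 Eif2s3y was at 358.3, so that both genes were detected there.

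By substrate class, the 164 genes comprised 31 mitochondrial carriers, 23 metal carriers, 23 carriers of nucleosides and nucleotide sugars and 22 of amino acids and peptides. A further 21 were classed with ions, 11 with glucose and other sugars, and 24 with vitamins, lipids and organic ions. The 5 classed with monocarboxylates were Slc5a12 and members of the Slc16 family. The mitochondrial class took in the Slc25 family, whatever the membrane of each member. Another 4 carry the name but encode no carrier, such as the scaffold gene Slc9a3r1. Levels are log2 signals after background correction and quantile normalisation, and they are compared only within a gene, since probes differ in brightness.

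After 6 h of IL-7, 13 of the 140 solute carrier genes tested rose and 5 fell (limma, Benjamini-Hochberg adjusted p under 0.05 over all features). These 18 are 12.9% of the genes tested, against 9.51% of all 11040 features, of which 4.2% rose and 5.31% fell. The split was 20 higher and 4 lower with the deposited scaling factors, and 13 and 8 with a 75th percentile scaling. The split of all features under these scalings is not given, so these shifts cannot be read as particular to solute carrier genes. The falls were led by Slc16a5 of the monocarboxylate family and the zinc exporter gene Slc30a1. The rises were led by the glucose transporter gene Slc2a6, and took in carriers of carnitine, nucleosides, urea and nucleotide sugars. None of the 17 amino acid and peptide carriers tested passed with limma at 6 h or at 24 h. An unadjusted p under 0.05 was found for 3 and 2 of them, beside 3235 and 2788 of all 11040 features.

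Slc16a5 encodes a relative of the lactate transporters that is known, in humans, to carry drugs such as bumetanide. Its log2 signal was 10.55 and 10.41 on the 0 h arrays, 8.34 and 6.49 at 6 h, and 7.26 and 7.50 at 24 h. The 0 h arrays stood above all 4 arrays with IL-7, and the arrays at 6 h differed from each other more than those at any other time. The gene fell by 3.06 ± 0.54 on the log2 scale at 6 h (SE, adjusted p = 0.0255) and fell by 3.09 ± 0.54 at 24 h (adjusted p = 0.0308), with both of its detected probes in this direction. The higher 6 h array is replicate 1, on which the B cell, myeloid and erythroid markers were high, and their part in its level was not tested. The summed markers of natural killer (NK) cells were also lower at 6 h and 24 h than at 0 h. Relative to the array mean, the sum over 6 NK genes with a probe was 10.73 and 10.12 at 0 h, 3.72 and 5.32 at 6 h, 8.75 and 7.06 at 24 h, and 0.97 to 2.62 on the Th9 arrays. Of 4 tested, Klra3, Klrd1 and Nkg7 fell at 6 h and Klra3, Klra7 and Klrd1 at 24 h. From 6 h to 24 h Nkg7 rose, while Slc16a5 stood at -0.03 ± 0.54. At 6 h the NK sum was lower on replicate 1, where Slc16a5 was higher. The deposited signal of Klrd1, a receptor chain of NK cells, was 1036.9 and 734.5 at 0 h, 294.1 and 511.7 at 6 h, 357.2 and 258.1 at 24 h, and -4.9 to 5.6 on the Th9 arrays, while the NK receptor gene Ncr1 was not detected on any array. The CD8 T cell gene Cd8b1 was detected on all 12 arrays, at 1999 and 1484.5 at 0 h, while Cd8a was not detected. Cd8b1 was not called at 6 h or 24 h and was lower in Th9 cells than at 0 h. The part of NK or CD8 T cells in the level of Slc16a5 was not tested. In RNA from whole populations, fewer cells that express a gene and less RNA per cell cannot be told apart.

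Slc30a1, which exports zinc from the cell, had log2 signals of 7.44 and 7.37 at 0 h, 6.43 and 5.72 at 6 h, and 6.28 and 5.90 at 24 h. No array with IL-7 reached the 0 h level. The gene fell by 1.33 ± 0.25 at 6 h (adjusted p = 0.0304) and fell by 1.32 ± 0.25 at 24 h (adjusted p = 0.0391). It is a known target of Mtf1 in mice, and its promoter is shown because it was the called metal carrier that was low at both times. The window holds the 250 bases before a RefSeq transcript start (GRCm38.p6, chr1:191906531-191906780, plus strand). The RefSeq gene begins at base 191906697, so that the last 84 bases of the window, the match among them, lie inside the gene. The sequence is given with the match to the metal response element, searched as TGCNCNC on both strands, in capitals.
Slc30a1: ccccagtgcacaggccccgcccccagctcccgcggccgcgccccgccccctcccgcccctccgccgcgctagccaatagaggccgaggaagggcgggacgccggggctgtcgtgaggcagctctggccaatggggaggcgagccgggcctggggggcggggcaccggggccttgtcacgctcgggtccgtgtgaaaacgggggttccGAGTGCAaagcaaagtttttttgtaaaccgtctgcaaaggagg
This short motif is common, in 53.1% of the 128 members with such a window, 47.2% of all 27025 genes with one and 56.5% of the 7697 of these that were detected on the arrays, so the match is a description of the sequence. Mtf1 itself stood at -0.56 ± 0.23 at 6 h (adjusted p = 0.161) and at -1.04 ± 0.23 at 24 h (adjusted p = 0.0514).

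Other metal carriers moved at 1 time or the other. Slc39a4, a zinc importer, had 5.87 and 5.52 at 0 h and 6.44 and 6.70 at 6 h, and rose by 0.87 ± 0.18 (adjusted p = 0.0372). Slc30a4, which loads zinc into vesicles, had no detected array at 0 h and 6.68 and 6.33 at 24 h, a rise of at least 2.76-fold (adjusted p = 0.0232). The bound sets the undetected side at the lowest detected signal of each array. Of the 21 metal carriers tested, 1 rose and 1 fell at 6 h, and again 1 rose and 1 fell at 24 h.

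Among 11 sugar carriers 2 rose at 6 h and none at 24 h (limma), where 2 had an unadjusted p under 0.05, beside 2788 of all 11040 features. Slc2a6, a glucose transporter found on lysosomes, was not detected at 0 h and had log2 signals of 6.25 and 5.61 at 6 h. At 24 h it was again not detected, and its signals of 4.81 and 4.68 lay beside 4.39 and 4.75 at 0 h. The rise at 6 h was at least 1.85-fold (adjusted p = 0.0257). Slc37a2, a sugar phosphate exchanger, had 5.90 and 5.57 at 6 h and no detected array at 0 h, a rise of at least 1.62-fold (adjusted p = 0.0237). Both genes were higher on 6 h replicate 1, the array with high B cell, myeloid and erythroid markers, and the part of those cells was not tested. The main glucose transporters of T cells did not pass the test. Slc2a1 stood at 0.12 ± 0.14 at 6 h and at -0.29 ± 0.14 at 24 h (adjusted p = 0.592 and 0.255), and Slc2a3 at -0.76 ± 0.37 and -0.31 ± 0.37 (adjusted p = 0.234 and 0.648).

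Amino acid carriers that activated T cells use did not pass the test at either time. The glutamine transporter gene Slc38a2 had 11.97 and 11.94 at 0 h, 11.97 and 11.95 at 6 h, and 11.84 and 12.02 at 24 h. Its log2 difference was 0.00 ± 0.13 at 6 h (adjusted p = 1) and -0.03 ± 0.13 at 24 h (adjusted p = 0.917). Slc1a5, another glutamine carrier, stood at -0.26 ± 0.20 and 0.00 ± 0.20, and Slc3a2, the heavy chain that partners the large neutral amino acid transporters, at -0.31 ± 0.17 and -0.35 ± 0.17. The median log2 difference over the 17 carriers was -0.04 at 6 h and 0.00 at 24 h, beside -0.03 and -0.00 over all features.

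Nucleoside and nucleotide sugar carriers changed in both directions at 6 h, with 3 of 20 higher and 2 lower by the test. Slc28a2b, a close copy of the sodium-driven nucleoside transporter gene Slc28a2, had 8.92 and 9.15 at 0 h, 9.97 and 10.13 at 6 h, and 10.36 and 10.76 at 24 h. The 3 times did not overlap, and the gene rose by 1.01 ± 0.18 at 6 h (adjusted p = 0.0262) and by 1.52 ± 0.18 at 24 h (adjusted p = 0.0132). Whether its probe also reads Slc28a2, which has a probe of its own, was not tested. Slc35c1, which takes GDP-fucose into the Golgi, fell from 11.28 and 11.19 to 10.27 and 10.47 at 6 h, by 0.87 ± 0.13 (adjusted p = 0.0185). Slc35d2 (0.91 ± 0.17) and Slc35e1 (0.59 ± 0.13) rose at 6 h, and Slc35a5 fell (-0.62 ± 0.13).

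Slc22a5, the carnitine transporter that supplies fatty acid oxidation, had 7.47 and 7.30 at 0 h, 8.27 and 8.46 at 6 h, and 8.82 and 8.76 at 24 h. It rose by 0.98 ± 0.14 at 6 h (adjusted p = 0.0155) and by 1.41 ± 0.14 at 24 h (adjusted p = 0.00783), the lowest adjusted p of any solute carrier gene in the time course, and its 3 detected probes moved the same way. Slc17a9, which loads ATP into vesicles, had 8.21 and 8.22 at 0 h and 9.58 and 9.57 at 24 h, a rise of 1.36 ± 0.17 (adjusted p = 0.0139). Further rises in this class were Slc10a3 (1.09 ± 0.22) and the urea transporter gene Slc14a1 (0.97 ± 0.20) at 6 h, and Slc49a4 (0.82 ± 0.17) at 24 h.

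Of 15 ion carriers, the mitochondrial sodium-calcium exchanger gene Slc8b1 rose at 6 h (0.74 ± 0.16) and the endosomal sodium-proton exchanger gene Slc9a9 fell, from 7.38 and 7.34 to 6.39 and 6.28 (-1.03 ± 0.12, adjusted p = 0.0118). At 24 h only Slc12a7, a potassium-chloride cotransporter, was called in this class, at 9.21 and 9.44 against 8.41 and 8.55 (0.85 ± 0.17, adjusted p = 0.0449). Of 30 mitochondrial carriers, Slc25a27, of the uncoupling protein family, rose by 0.74 ± 0.15 at 6 h and by 0.93 ± 0.15 at 24 h, and Slc25a53 rose by 0.84 ± 0.16 at 6 h. The ADP/ATP carrier gene Slc25a5, at -0.37 ± 0.12 and -0.20 ± 0.12, and the citrate carrier gene Slc25a1, at 0.61 ± 0.17 and 0.20 ± 0.17, did not pass at either time.

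**Figure D1:**
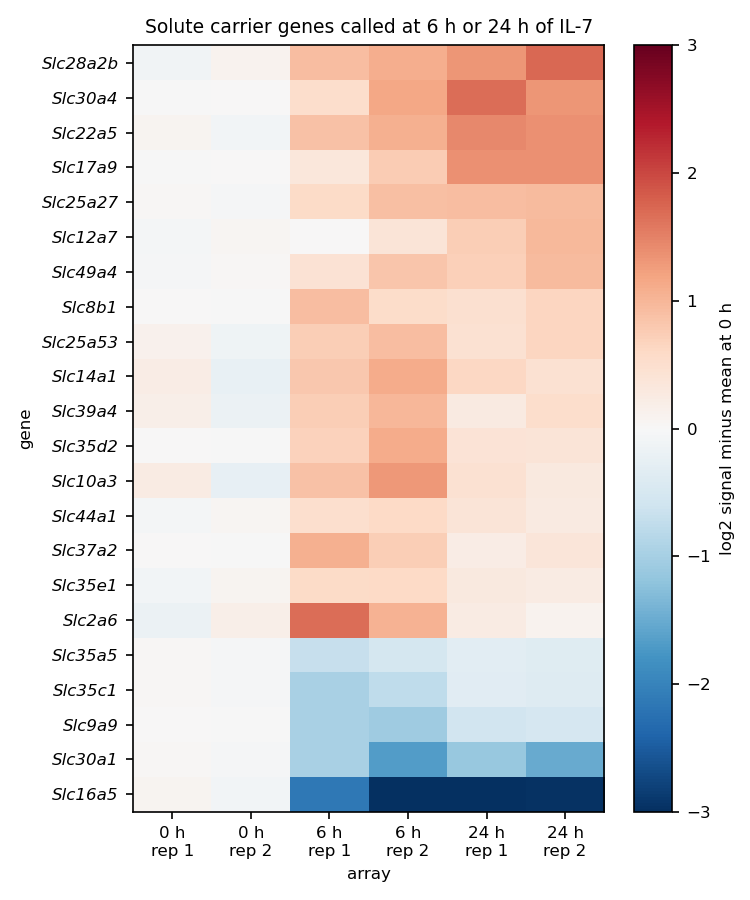
Log2 signal minus the mean of the 0 h arrays for the 22 solute carrier genes called at 6 h or 24 h (rows), on the 6 arrays of the first experiment (columns). Red is higher and blue lower than at 0 h, with colours capped at 3. The deepest blue is Slc16a5, which lies beyond the cap on 6 h replicate 2 and on 24 h replicate 1.

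At 24 h, 7 of the 140 genes rose and 2 fell, or 6.43% against 6.25% of all features, of which 3.31% rose and 2.94% fell. Slc16a5, Slc22a5, Slc25a27, Slc28a2b and Slc30a1 were called at both times, each in the same direction. They make up 27.8% of the 6 h calls and 55.6% of the 24 h calls, and both comparisons share the arrays at 0 h. Groups did not overlap for 76 of the 140 genes at 6 h and 91 at 24 h, beside 57.8% and 63.1% of all features.

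These calls depend on single arrays. The counts that follow are not set beside the share of all features, so the shifts cannot be read as particular to solute carrier genes. The count at 6 h was 0 without either 0 h array, 1 without either 24 h array, 40 without 6 h replicate 1 and 26 without 6 h replicate 2. At 24 h it was 0 without any one array of 0 h or 24 h, and 23 and 22 without 6 h replicates 1 and 2. Of the 18 genes called at 6 h, 17 were called without replicate 1 and 16 without replicate 2, and Slc2a6 then no longer passed the filter on detection.

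**Figure D2:**
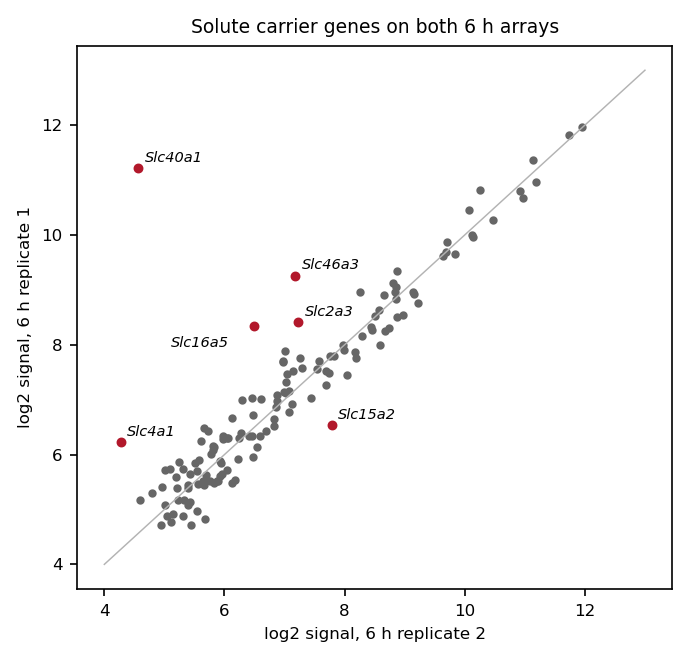
Log2 signal of the 140 tested solute carrier genes on 6 h replicate 2 (x axis) and 6 h replicate 1 (y axis), with the line of equal signal. The 6 genes in red differ by over 1 on the log2 scale.

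Between the arrays at 6 h, 6 of the 140 genes differed by more than 1 on the log2 scale, 5 of them higher on replicate 1. Slc40a1, the iron exporter ferroportin of macrophages, had a deposited signal of 1875.6 on replicate 1, 6.6 on replicate 2, and 75 and 49.8 at 0 h. Slc4a1, the anion exchanger of red cells, was at 46.0 and -2.5 on these arrays, and Slc46a3, a lysosomal carrier, at 459.1 and 127.1. After normalisation, Slc40a1, Slc4a1 and Slc46a3 stood more than 1 on the log2 scale above all 5 other arrays of the experiment. None of the 3, named after their values were seen, was called, and Slc40a1 stood at 1.70 ± 1.88 at 6 h (adjusted p = 0.586). It passed in opposite directions with either array left out, at -1.62 without replicate 1 and 5.03 without replicate 2. Its level and those of the myeloid and erythroid markers were high on the same array.

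From 6 h to 24 h none of the 140 genes passed with limma, beside 0.444% of all features. An unadjusted p under 0.05 was found for 26 of the 140, beside 1883 of all 11040 features. Slc25a37, which brings iron into mitochondria, had the lowest adjusted p and stood higher at 24 h (0.97 ± 0.15, adjusted p = 0.07). Some genes passed when either 6 h array was left out, but the share of all features in those fits is not given beside them. Slc16a5 stood at -0.03 ± 0.54, and at 0.90 without 6 h replicate 1.

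Genes that work with the carriers were read from a list of transport partners and regulators. Of 22 measured at 6 h, Sfxn3, a mitochondrial serine carrier of another family (0.82 ± 0.16), and Ttyh3, of the tweety family, (1.41 ± 0.30) rose, and the organic anion carrier gene Slco3a1 fell (-1.28 ± 0.28). At 24 h Ttyh3 (1.51 ± 0.30) and Slco4a1 (1.38 ± 0.17) rose and none fell. Of 18 transcription factors and sensors of nutrient transport, Myc rose by 0.88 ± 0.16 at 6 h and by 1.64 ± 0.16 at 24 h. Hif1a, the factor of the hypoxia response, rose at 6 h (1.07 ± 0.13), and Srebf2, the factor of sterol synthesis, at 24 h (0.75 ± 0.13). Mlx, the partner of glucose-sensing factors, fell at both times (-1.11 ± 0.15 and -0.76 ± 0.15), as did Ddit4, an inhibitor of mTORC1.

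In Th9 cells, none of the 119 solute carrier genes tested passed between cells grown after IL-7 and without it (limma), beside 0.344% of 9594 features. An unadjusted p under 0.05 was found for 10 of the 119, beside 947 of the 9594. The median log2 difference was -0.01 over these genes and over all features, and the arrays of both groups did not overlap for 21 genes, beside 14.6% of all features. The genes nearest to the threshold are named after their values were seen. Slc1a2, a glutamate transporter best known from astrocytes, had 6.31, 6.38 and 6.53 without IL-7 and 4.45, 5.27 and 5.42 after it. All 3 arrays after IL-7 were lower (-1.36 ± 0.24, adjusted p = 0.0794). Slc15a3, a lysosomal peptide and histidine transporter, had 8.81, 8.55 and 8.65 without IL-7 and 10.03, 9.36 and 9.56 after it, a difference of 0.98 ± 0.19 (adjusted p = 0.0882).

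The glucose transporter gene Slc2a1 stood at 0.05 ± 0.24, the lactate exporter gene Slc16a3 at -0.03 ± 0.28, Slc38a2 at -0.11 ± 0.27, and the iron importer gene Slc11a2 at -0.49 ± 0.14 (adjusted p = 0.27). Replicate 1 after IL-7, which carried Xist, had the highest Slc15a3 and the lowest Slc1a2 of its group. No solute carrier gene was called without that array, and 2 were called without IL-7 replicate 3. These counts are not set beside the share of all features, so they cannot be read as particular to solute carrier genes. Among the partner genes only Stk39, a kinase that activates chloride cotransporters, was called, and it fell (-0.97 ± 0.14, adjusted p = 0.0396).

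Th9 cells without IL-7 were also set against naive cells at 0 h, with all 12 arrays normalised together. Per the scanner names in the labels, the arrays of each experiment were on a BeadChip of their own, so cell state and BeadChip cannot be told apart in these differences. Of the 164 genes 60 were higher and 53 lower, or 68.9% against 66.8% of all 12248 features, of which 31.4% were higher and 35.4% lower. The arrays did not overlap for 132 genes, beside 80.3% of all features. The split depends on the scaling: 40 were higher and 75 lower with each experiment normalised by itself, and 41 and 68 with the factors of the deposited scaled table. These settings moved the median of all features from -0.08 to -0.48 and -0.43. With these and 2 other settings of scale and background, 37 of the 60 higher and 37 of the 53 lower genes were called each time, and 0 were called in the opposite direction. The share of all features called under every setting was not counted. Counts of this kind, here and by class below, thus cannot be read as particular to solute carrier genes.

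**Figure D3:**
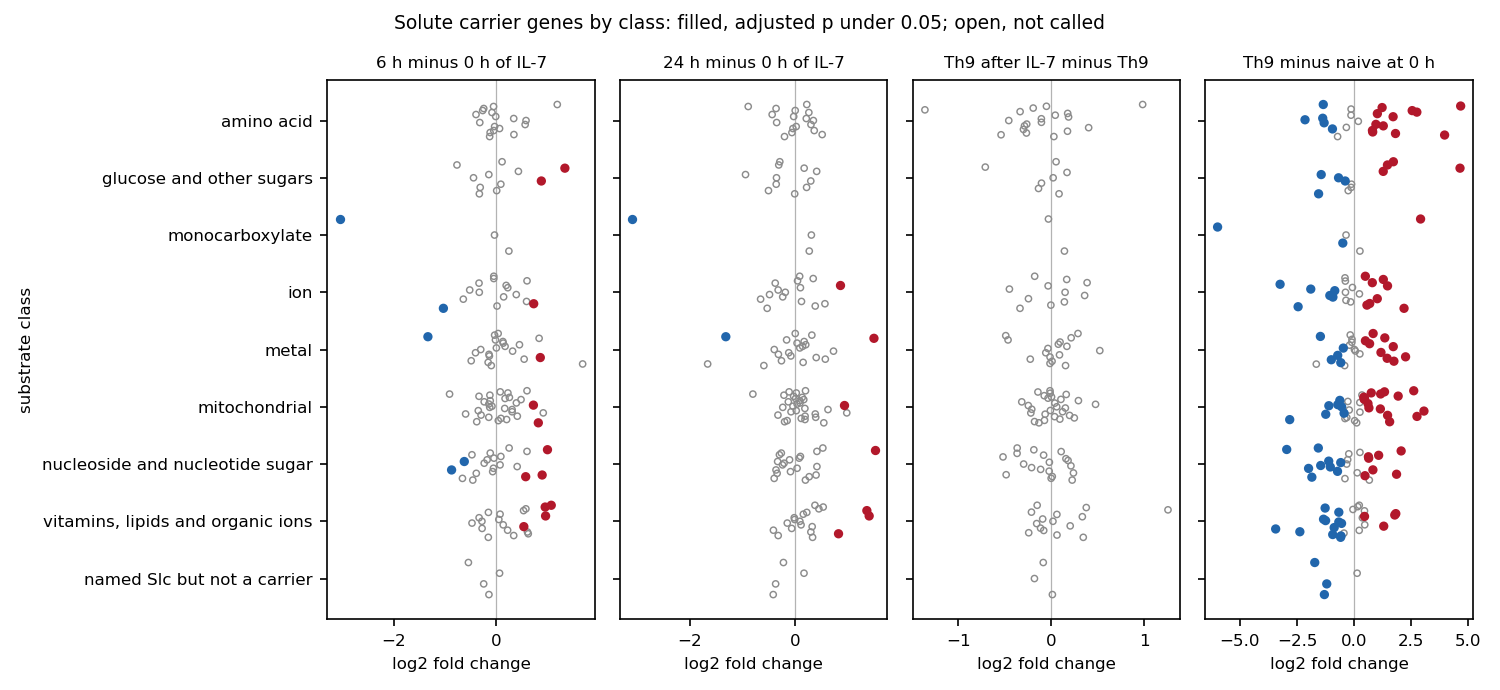
Log2 fold changes of the tested solute carrier genes (points) by substrate class (rows) in 4 comparisons (panels, each with its own scale). Filled red points rose and filled blue points fell at an adjusted p under 0.05. Calls are few after 6 h or 24 h of IL-7, absent in Th9 cells after IL-7, and present on both sides in Th9 against naive cells.

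Amino acid and peptide carriers numbered 12 higher and 5 lower of 22 in Th9 cells, with a median of 0.80, beside -0.08 over all features. Under all 4 other settings 9 of the 12 and 4 of the 5 were called again. Slc7a3, a transporter of arginine and lysine, had 4.69 and 4.56 at 0 h, undetected, and 8.47, 8.83 and 8.44 in Th9 cells, at least 12.6-fold higher (adjusted p = 1.43e-08). Slc15a3 was at 4.28 and 4.31 at 0 h, undetected, and at 9.09, 8.84 and 8.93 in Th9 cells, at least 16.3-fold higher. Slc1a4, which carries serine, alanine and cysteine, was undetected at 0 h and had 6.65, 7.60 and 7.01 in Th9 cells, at least 4.47-fold higher. Each of these groups is apart by more than 2 on the log2 scale.

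The glutamine carriers went both ways. Slc38a1 rose from 6.21 and 6.59 to 7.99, 8.31 and 8.01 (1.70 ± 0.22, adjusted p = 3.29e-05), and its 3 probes moved together. Slc38a2 was lower, at 10.01, 10.09 and 9.19 against 11.93 and 11.90 (-2.15 ± 0.26, adjusted p = 2.01e-05). Slc38a10 was lower as well (-1.38 ± 0.19), and so was Slc38a9, the lysosomal arginine sensor that activates mTORC1 (-1.32 ± 0.16), which is named after its value was seen. The peptide transporter gene Slc15a2 was undetected in Th9 cells and at least 1.49-fold lower (adjusted p = 0.0257), a call that was lost with the 75th percentile and with a floor in place of normexp. Slc7a6 and Slc16a10 did not pass (adjusted p = 0.0683 and 0.624). Slc1a5 (1.01 ± 0.25) and Slc3a2 (0.95 ± 0.17) were higher, but with each experiment normalised by itself they stood at 0.47 and 0.35 (adjusted p = 0.102 and 0.0903). The taurine transporter gene Slc6a6 was higher at 0.81 ± 0.15, and at 0.50 with the deposited factors (adjusted p = 0.0143).

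Of 11 sugar carriers 4 were higher and 4 lower, and 3 and 2 of these were called under all 4 other settings. One of the 4 lower, Slc37a2, was undetected in both groups, so that its call compares background levels. Slc2a6 was at 9.07, 9.23 and 9.23 in Th9 cells against 4.39 and 4.69, undetected, at 0 h, and was at least 19-fold higher (adjusted p = 5.67e-08). Slc2a1 had 10.09, 10.57 and 10.20 against 8.66 and 8.48, a difference of 1.71 ± 0.22 (adjusted p = 3.75e-05). All 3 Th9 arrays were above both 0 h arrays for each gene. Slc2a3 was higher by 1.46 ± 0.45 (adjusted p = 0.0134), but by 0.95 (adjusted p = 0.0785) with each experiment normalised by itself. The sugar exporter gene Slc50a1 was lower, at 8.64, 7.91 and 8.37 against 9.97 and 9.76 (-1.56 ± 0.21). The urate and hexose transporter gene Slc2a9 was undetected in Th9 cells and at least 1.53-fold lower, and Slc37a1 was lower at -0.69 ± 0.28 (adjusted p = 0.0495).

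In the monocarboxylate family the direction was opposite between its members. Slc16a3, the lactate exporter of glycolytic cells, was undetected at 0 h, had 7.21, 7.09 and 7.07 in Th9 cells, and was at least 4.58-fold higher (adjusted p = 3.44e-06). Slc16a5 was undetected on all 6 Th9 arrays, with deposited signals of -10.7 to 7.1 against 1878.3 and 1326.6 at 0 h, and was at least 35.2-fold lower (adjusted p = 1.78e-07). The gene thus ranged from its highest level at 0 h to below detection in both Th9 groups, with the arrays at 6 h and 24 h between them. Klrd1 ranged likewise. Deposited signals of Klra7 were 43.4 and 39 at 0 h, 2.3 and 19.7 at 6 h, and 5 and 2.2 at 24 h. On the Th9 arrays Klra7 was at -1.2 to 15.5, and it was detected on 3 of the 12 arrays. Of the 4 tested, Klra7, Klrd1 and Nkg7 were lower in Th9 cells than at 0 h and Klra3 was higher, and Nkg7 was detected on all 12 arrays. Slc16a9, a relative known in humans to carry carnitine, was called lower (adjusted p = 0.0321) but undetected in Th9 cells and too dim at 0 h for a bound, and Slc16a6 did not pass (-0.36 ± 0.18, adjusted p = 0.0999).

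Carriers of the mitochondrial class, the Slc25 family, numbered 15 higher and 7 lower of 31, with a median of 0.34. The median was -0.24 with each experiment normalised by itself and -0.17 with the deposited factors, where that of all features was -0.48 and -0.43. Of these calls 9 of the 15 and 4 of the 7 were made under all 4 other settings. Slc25a33, which brings pyrimidine nucleotides into mitochondria, had 8.35, 8.35 and 8.81 against 5.43 and 5.48 at 0 h (3.05 ± 0.17, adjusted p = 6.96e-08). Slc25a1, which exports the citrate used for lipid synthesis, had 9.08, 8.94 and 8.85 against 6.30 and 6.40 (2.61 ± 0.17). The ADP/ATP carrier genes Slc25a4 (2.75 ± 0.17) and Slc25a5 (1.55 ± 0.12) and the dicarboxylate carrier gene Slc25a10 (1.33 ± 0.20) were higher too. Slc25a45 was lowest of the class, at 6.44, 6.47 and 6.19 against 9.17 and 9.21 (-2.82 ± 0.14). Slc25a38, the glycine carrier of heme synthesis, was lower at -1.25 ± 0.14 with 2 of its 3 probes in this direction, and Slc25a28, an iron carrier, at -1.11 ± 0.13. Slc25a39, a glutathione carrier also tied to heme synthesis and named after its value was seen, was higher at 1.46 ± 0.17. The iron carrier gene Slc25a37 was lower at -0.44 ± 0.17 (adjusted p = 0.042), and the folate carrier gene Slc25a32 did not pass (-0.22 ± 0.16, adjusted p = 0.259).

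Carriers of nucleosides and nucleotide sugars were 7 higher and 9 lower of 23, with 3 and 7 of these called under all 4 other settings. Slc29a1, the equilibrative nucleoside transporter, had 8.45, 8.60 and 8.79 against 6.72 and 6.40 (2.05 ± 0.25, adjusted p = 2.12e-05). Slc28a2b was lower, at 6.24, 5.82 and 5.44 against 8.67 and 8.91 (-2.95 ± 0.26). Slc35c1 was lower at -2.00 ± 0.13, while Slc35a1, for CMP-sialic acid, was higher at 1.07 ± 0.20. Slc35e2 was lower (-1.85 ± 0.30), and Slc35b1 too (-0.59 ± 0.24, adjusted p = 0.0453). Slc35d3 was undetected at 0 h and at least 2.21-fold higher.

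Myc was higher in Th9 cells (1.59 ± 0.17, adjusted p = 9.98e-06), and the promoters of 2 solute carrier genes are shown with the E-box CACGTG, which reads the same on both strands, in capitals. They were picked for holding it: of the 10 genes with the largest rise, 7 have a window, and these 2 are the ones that hold the motif. Each is the 250 bases before the RefSeq start in GRCm38.p6. Slc25a33 lies at chr4:149774268-149774517 and Slc25a1 at chr16:17928220-17928469, both on the minus strand.
Slc25a33: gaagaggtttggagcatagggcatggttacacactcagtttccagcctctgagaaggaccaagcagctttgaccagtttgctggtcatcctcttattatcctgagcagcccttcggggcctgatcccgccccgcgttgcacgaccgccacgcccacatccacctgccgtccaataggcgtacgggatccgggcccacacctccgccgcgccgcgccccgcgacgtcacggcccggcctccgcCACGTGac
Slc25a1: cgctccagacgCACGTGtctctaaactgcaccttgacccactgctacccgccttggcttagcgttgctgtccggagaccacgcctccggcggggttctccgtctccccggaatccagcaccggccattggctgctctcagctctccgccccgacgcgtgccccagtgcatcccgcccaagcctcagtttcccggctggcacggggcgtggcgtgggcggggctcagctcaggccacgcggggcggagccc
The E-box was in the window of 21 of 128 members (16.4%), of 6.86% of all genes and of 10.3% of the 7697 genes with a window that were detected on these arrays, where a gene with several starts counts if any of its windows holds it. With the outermost start alone it was in 13.3% of members and 6.04% of all genes. Among the 21, 7 were higher and 4 lower in Th9 cells with a median of 0.18, and among the other 107, 42 were higher and 40 lower with a median of -0.10. Slc12a7 and Slc20a1, both lower in Th9 cells, hold the motif too. The STAT motif TTCNNNGAA was in the windows of 6.25% of the members, 8.13% of all genes and 7.25% of the detected ones, and the amino acid response element, searched as TGATGNAA on both strands, in 3.12%, 3.91% and 2.52%.

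Ion carriers were 8 higher and 6 lower of 21. Under all 4 other settings 3 of the 8 and 6 of the 6 were called again. With each experiment normalised by itself and with the deposited factors, the median of the ion carriers was -0.55 and -0.46. Beside it, the median of all features was -0.48 and -0.43. Slc12a7 had 5.30, 4.80 and 4.80 in Th9 cells against 8.14 and 8.28 (-3.24 ± 0.20, adjusted p = 1.25e-07), while Slc12a2, which brings chloride into the cell, had 8.89, 8.93 and 9.16 against 7.76 and 7.67 (1.27 ± 0.25). Slc12a4, which like Slc12a7 exports chloride and is named after its value was seen, stood on the other side, undetected at 0 h and at least 1.29-fold higher (adjusted p = 0.0418). That call was lost with each experiment normalised by itself, with the deposited factors and with a floor in place of normexp. Slc12a8, a more distant relative, was undetected at 0 h and at least 1.75-fold higher, a call lost with the floor. Slc9a9 was undetected in Th9 cells and at least 3.73-fold lower, the sodium-proton exchanger gene Slc9b2 was undetected at 0 h and at least 3.18-fold higher, and the phosphate carrier gene Slc20a1 was lower (-1.90 ± 0.24).

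Metal carriers were 9 higher and 5 lower of 23, with 6 and 3 of these called under all 4 other settings. Slc39a4, a zinc importer, had 7.87, 7.77 and 7.57 against 5.64 and 5.33 (2.25 ± 0.17, adjusted p = 5.97e-07). Slc30a1, the zinc exporter, had 5.54, 5.58 and 5.80 against 7.15 and 7.09 (-1.48 ± 0.31, adjusted p = 0.00123). The copper importer gene Slc31a1 was higher (1.71 ± 0.13), and Slc39a8, an importer of zinc and manganese, was undetected at 0 h and at least 2.52-fold higher. Slc39a7, which releases zinc from the endoplasmic reticulum, was lower, at 8.09, 8.43 and 8.56 against 9.29 and 9.43 (adjusted p = 0.000635), as was the zinc importer gene Slc39a3 (-0.72 ± 0.28, adjusted p = 0.0421), while Slc39a10 stood at 0.05 ± 0.35 (adjusted p = 0.904). Tfrc, the transferrin receptor that brings in iron outside this family, was higher by 3.93 ± 0.16.

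Of 24 carriers of vitamins, lipids and organic ions 4 were higher and 12 lower, with a median of -0.50, and 3 and 7 of these were called under all 4 other settings. The folate carrier gene Slc19a1 had 8.52, 8.81 and 8.94 against 6.92 and 6.95 (1.82 ± 0.21), and the thiamine carrier gene Slc19a2 was higher by 1.77 ± 0.16. Slc44a2, of the choline transporter-like family, had 8.09, 8.09 and 7.83 against 11.55 and 11.34 (-3.44 ± 0.16, adjusted p = 1.58e-08). Slc46a3 was lower at -2.38 ± 0.47, and the vitamin C transporter gene Slc23a2 at -1.34 ± 0.18. Slc35f2 was undetected at 0 h and at least 2.18-fold higher. Of the 4 genes that encode no carrier, 3 were lower, Slc9a3r1 (-1.31 ± 0.17), Slc7a6os (-1.20 ± 0.20) and Slc2a4rg-ps, which was undetected in Th9 cells and at least 2.24-fold lower.

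**Figure D4:**
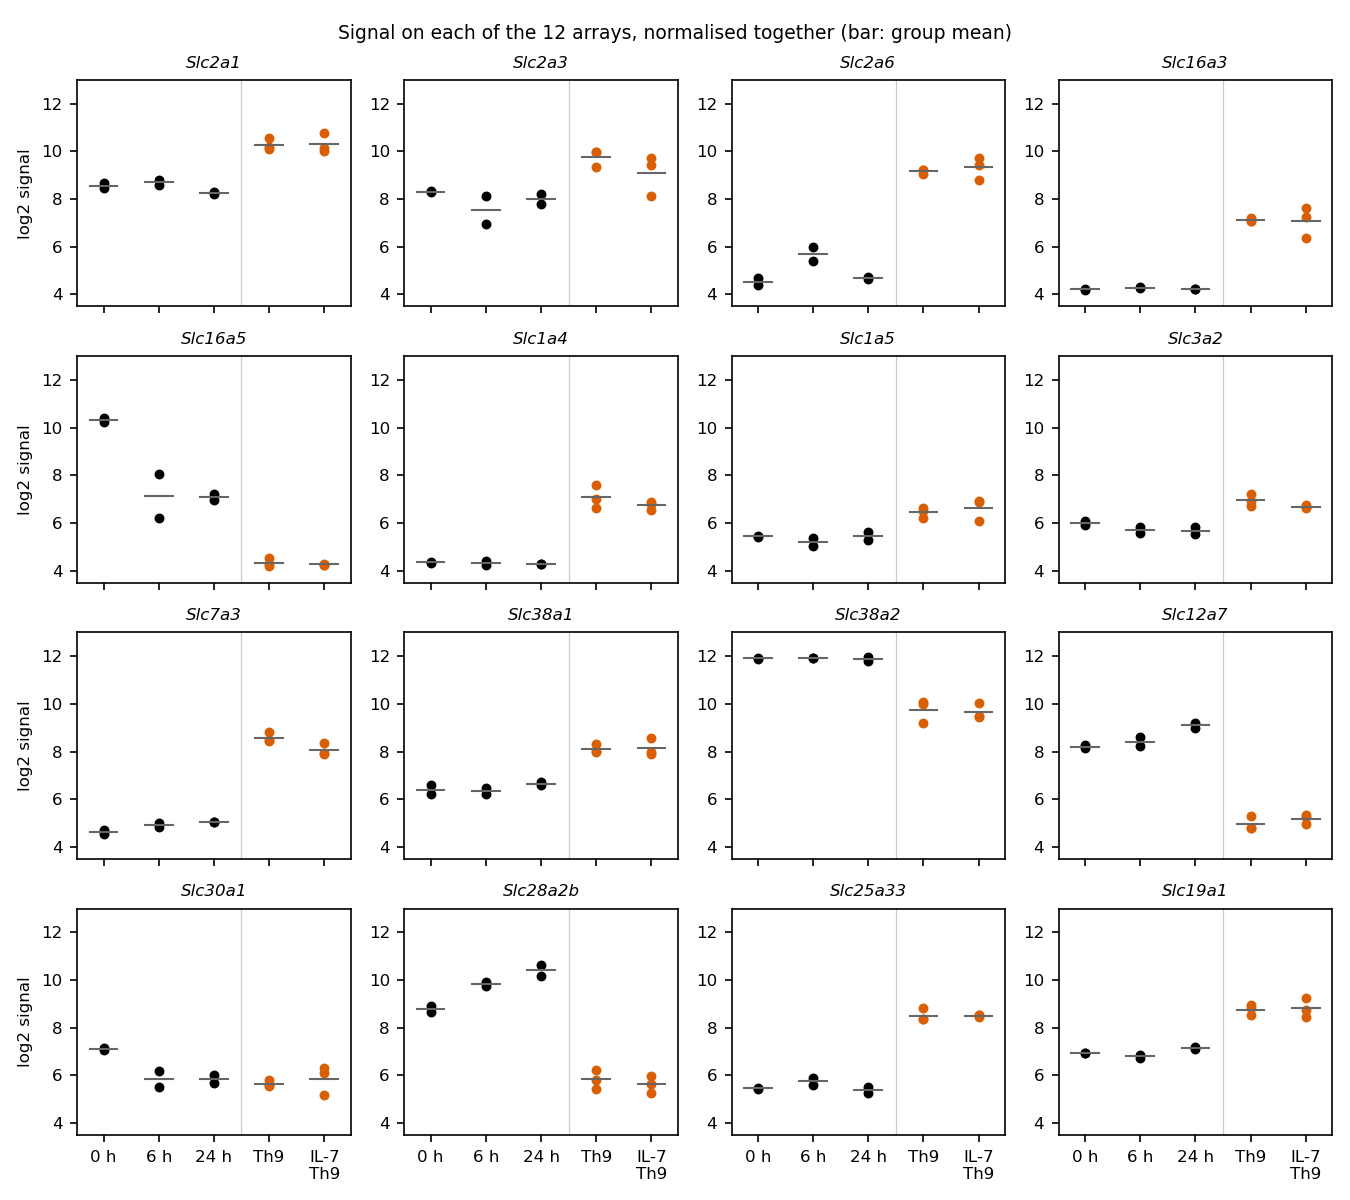
Log2 signal of 16 solute carrier genes on each of the 12 arrays, normalised together (y axis, the same scale in all panels), by group (x axis), with naive arrays in black, Th9 arrays in orange and bars at group means. The line parts the experiments, which lie on different BeadChips. Slc16a3, Slc1a4, Slc7a3 and Slc2a6 lie low at 0 h and high in Th9 cells, and Slc16a5 drops at 6 h and again in Th9 cells.

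Of 23 transport partners and regulators, 7 were higher and 7 lower in Th9 cells. The lysophospholipid carrier gene Mfsd2a (4.27 ± 0.15), the mitochondrial serine carrier gene Sfxn1 (1.97 ± 0.12), Slco4a1 (2.77 ± 0.20), Stk39 (3.56 ± 0.26), Mcu, Mfsd10 and Tfrc were higher. Txnip, which removes glucose transporters from the surface, was lower (-5.72 ± 0.27), as was Emb, a chaperone of lactate transporters (-2.07 ± 0.15), together with Spns1, Flvcr1, Nedd4l, Sgk1 and Wnk1.

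The effect of 24 h of IL-7 in naive cells was set against that of IL-7 before culture in Th9 cells by a test of the difference itself, each effect taken within its own BeadChip. Of the 164 genes 7 were called, or 4.27% against 3.75% of all features (2.06% higher, 1.69% lower). The split was 6 higher and 1 lower, and 5 and 2 with the 75th percentile scaling, for which the split of all features is not given. For 3 of the 7, Slc16a5, Slc25a27 and Slc1a2, no array of one experiment detected the gene, so that no effect of IL-7 could be measured there and no difference is given. Of the 117 genes detected in both experiments 4 were called, or 3.42%, against 3.4% of 9707 features: Slc22a5, Slc28a2b, Slc17a9 and Slc11a2, all on the higher side in naive cells. Slc22a5 had the lowest adjusted p, with a log2 difference of 1.44 in naive cells and of -0.09 in Th9 cells. The count over the 164 genes depended on single arrays, and the share of all features in the fits without 1 array is not given beside it.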

How the data were processed

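Total RNA of 12 samples was labelled with biotin and hybridised to Illumina mouse BeadChips, 1 array per sample. The authors deposited for each of 45281 probes an intensity, which is background-subtracted, linear and not normalised between arrays, and beside it a detection p-value. These values come from GenomeStudio, per the submitters' processing notes, and no version is given in the sources used here. A second deposited table of scaled intensity values was used only for its factor per array, 0.741 to 1.415. These factors came from 609 of 1000 bright lines (60.9%) whose profile over the arrays matched a probe of the first table, and 0 of them carried the same probe name.

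A table pairing probes with symbols gave 34885 probes 1 symbol, 18 several and 10378 none. All 164 solute carrier symbols were in the RefSeq gene table (GRCm38.p6), which also supplied the promoters. Substrate classes were assigned by hand from textbook knowledge.

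Normalisation used the neqc function (limma 3.58.1, R 4.3.3: normexp background with negative controls inferred from detection p, offset 16, quantile normalisation, log2), for the 6 arrays of each experiment and, for comparisons across experiments, for all 12. Features were tested when detected (p under 0.01) on 2 or more time course arrays (140 solute carrier genes), 3 or more Th9 arrays (119) or 2 or more of all 12 (164). Of the 164 genes, 10 were tested only across experiments. Groups were compared with lmFit and eBayes on the whole table, 2-sided, with Benjamini-Hochberg adjustment over all features, and called at an adjusted p under 0.05. The code was tested on simulated data. Errors are standard errors of the fit. A fold against a group with no detected array is a bound, for which that group was set to each array's lowest detected signal. Precision is limited by the number of arrays.

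Genes named were, per class and comparison, the 3 called genes with the largest rise and the 3 with the largest fall, and a fixed panel of nutrient carriers. Genes outside this rule are said to be named after their values were seen, and panel genes with no detected probe are not named. The members, classes, lists and panel were chosen with earlier results of these data known.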

Additional observations from a re-analysis of the deposited data

Results flagged for a closer look

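For 4 solute carrier genes detected in both experiments the difference that 24 h of IL-7 made in naive cells differed from the difference that IL-7 before culture made in Th9 cells, by a test of the difference itself over all 12 arrays (limma). This is 3.42% of the 117 genes detected in both, beside 3.4% of all features so detected. The treatments also differ in length and in the culture that follows.

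The carnitine transporter gene Slc22a5 stood at 1.44 in naive cells and -0.09 in Th9 cells on the log2 scale, a difference of 1.53 ± 0.22 (adjusted p = 0.00652). Slc28a2b stood at 1.62 and -0.21, a difference of 1.83 ± 0.36 (adjusted p = 0.0218), and the vesicular nucleotide carrier gene Slc17a9 at 1.42 and -0.22, a difference of 1.64 ± 0.38 (adjusted p = 0.0412). The iron importer gene Slc11a2 stood at 0.31 and -0.53, neither of which passed within its own experiment, a difference of 0.84 ± 0.20 (adjusted p = 0.0464). Only 1 of its 2 detected probes was higher at 24 h in naive cells, and 2 of 2 were lower in Th9 cells after IL-7. The calls of Slc11a2 and Slc17a9 were lost in most fits that left out 1 array.

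Another 3 genes that passed this test, Slc16a5, Slc25a27 and Slc1a2, were not detected on any array of one experiment, and no difference is given for them.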

How the results depend on the processing

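Counts of called solute carrier genes depended on the filter, the groups fitted and single arrays. They are given without the share of all features called in the same fits, and so do not show whether the shifts are particular to these genes. At 6 h, 18 became 5 with no filter on detection and 1 when only the groups compared were fitted, and ranged from 0 to 40 leaving out 1 array. At 24 h, 9 became 5 with a floor in place of normexp, 3 with no filter and 23 with only the groups compared, and ranged from 0 to 23. From 6 h to 24 h, 0 became 2 with a trended, robust fit and ranged from 0 to 17. In Th9 cells after IL-7, 0 became 1 with the floor, 1 with the 75th percentile and 2 with the trended fit, and ranged from 0 to 2. The difference between the experiments, 7, became 4 with no filter and 4 with all probes tested, and ranged from 0 to 10. Th9 against naive cells, 113, stayed within 1.5 times, from 88 to 113 leaving out 1 array. Where an arm was left with 1 array, it was assumed to vary like the other groups. The cause of these shifts was not tested.

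Replicate numbers are shared across groups. Deviations of arrays with the same number correlated at 0.06, 0.14 and -0.19 in the first experiment. In the second they correlated at -0.06, -0.10 and 0.29. With 2 arrays per group the deviations mirror each other, and these few values cannot show whether a number marks samples that belong together. With the replicate number as a block the counts were 12, 10, 0, 0, 98 and 4 (6 h, 24 h, 24 h against 6 h, Th9 after IL-7, Th9 against naive, and the difference between experiments), and 9 of the 18 genes at 6 h and all 9 at 24 h were called again.

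Of the genes named with a value in a comparison, 4 changed direction. Slc40a1 and Slc46a3 at 6 h moved to -1.62 and -0.81 without 6 h replicate 1, and to 5.03 and 1.27 without replicate 2. Slc37a2 in Th9 against naive cells moved from -0.39 to 0.040 with the 75th percentile (adjusted p = 0.863), and Slc16a5 from 6 h to 24 h moved from -0.03 to between -0.96 and 0.90 leaving out 1 array, with 0.90 without 6 h replicate 1.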
